A study of Mus musculus with 2 samples.

Results

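Genes linked to the macrophages of the gut muscle layer were followed in jejunal tunica muscularis with and without smooth muscle-directed deletion of *Dnmt1* (*Dnmt1*-KO and *Dnmt1*-WT). They were picked by symbol. Known macrophage genes were *Csf1r*, *Cd68*, *Mrc1*, *Cd163*, *Lyz2*, *Emr1* (now named *Adgre1*) and *Cd14*, and *Csf1* encodes a growth factor of these cells. All 8 were found among the 18159 gene symbols listed. In both libraries every one of them was above 0 FPKM, that is, fragments scaled by transcript length and by the mapped fragments of the library. The tissue was taken at 15 days of age, on a C57BL/6 background, from the muscle layer after it had been peeled from the mucosa. *Dnmt1*-KO mice carried the *smMHC* Cre-eGFP transgene and floxed *Dnmt1* alleles, which Cre deletes, whereas *Dnmt1*-WT mice carried the same transgene with *Dnmt1* intact. Since the *Myh11* promoter drives Cre, deletion is directed to smooth muscle cells (SMCs) and not to macrophages. Each genotype had 1 mRNA library, from 2 males and 2 females by the study's methods, and how their RNA was combined is not given in the sources used here.

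Muscularis macrophages lie between and within the muscle layers and around the myenteric plexus, where they take up dead cells and debris and exchange signals with enteric neurons. Their survival depends on the CSF1 receptor (CSF1R), a tyrosine kinase that binds the growth factors CSF1 and IL-34. Resident macrophages of this layer are known for scavenger receptors such as the mannose receptor CD206 (*Mrc1*) and the haemoglobin receptor CD163. F4/80 (*Emr1*) and the lysosomal protein CD68 mark macrophages broadly, lysozyme M (*Lyz2*) digests bacterial cell walls, and CD14 presents lipopolysaccharide (LPS) to TLR4.

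Each of the 8 genes had its higher value in *Dnmt1*-KO, and 6 of them had at least 2 times the *Dnmt1*-WT FPKM. None was at 0.5 times or less. Of the 16102 genes with an FPKM above 0 in each library, 11.8% reached a ratio of 2 or more, 4.98% had a ratio of 0.5 or less, and 50.3% had a ratio above 1. The median log2 ratio of the 8 genes was 1.30, a ratio of 2.46, and that of all 16102 genes was 0.005. With 1 library per genotype there is no spread between replicates, so none of these differences has a replicate check and no test was made. In whole tissue, more cells of a type and more RNA per cell of that type cannot be told apart.

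**Figure D1:**
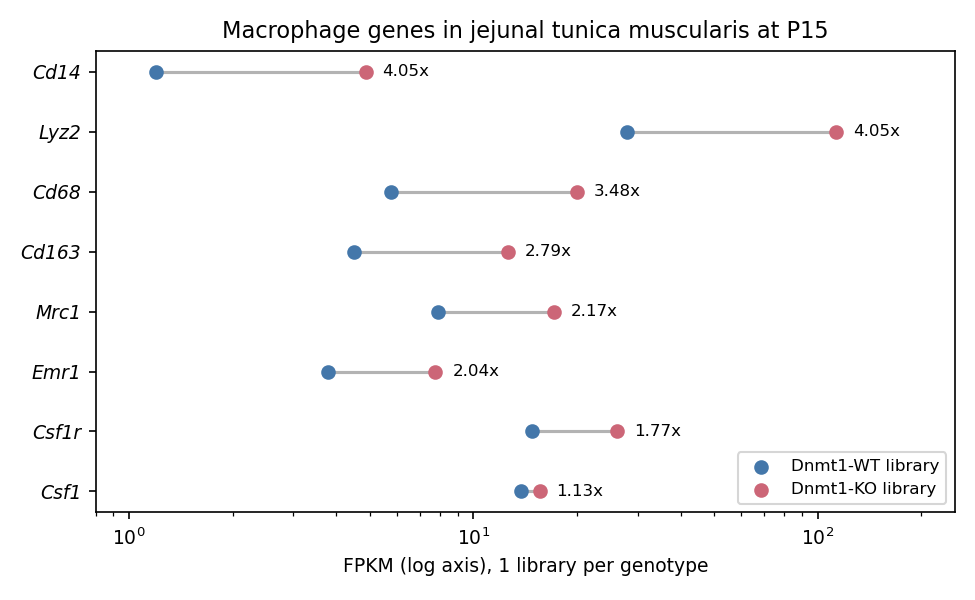
FPKM (log axis) of each of the 8 macrophage genes in the *Dnmt1*-WT (blue) and *Dnmt1*-KO (red) library, 1 library per genotype, with the ratio beside each pair. *Cd14* and *Lyz2* have the widest gaps, with a ratio of 4.05 each, and *Csf1* the narrowest, with 1.13.

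The receptor that defines the lineage was *Csf1r*, on chromosome 18 of GRCm38 from 61100598 to 61132149 (GENCODE release M21). Its FPKM of 14.79 for *Dnmt1*-WT compared with 26.16 for *Dnmt1*-KO, a ratio of 1.77. A higher ratio was found for 14.4% of all genes, and for 4.89% of the 4706 genes whose geometric mean FPKM lay within 2-fold of its own. *Csf1r* was the second most abundant of the 8 genes in both libraries. Its ratio was the lowest of the 7 genes other than *Csf1*.

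*Csf1*, on chromosome 3 from 107741048 to 107760469, encodes the ligand, a growth factor released by non-immune cells such as endothelium, fibroblasts, smooth muscle and enteric neurons. It was nearly level between the libraries, with 13.72 FPKM for *Dnmt1*-WT against 15.56 for *Dnmt1*-KO, a ratio of 1.13. Of all genes, 37.7% had a higher ratio. Receptor and ligand transcripts lay close together in *Dnmt1*-WT, where *Csf1r* was at 1.08 times the level of *Csf1*, and further apart in *Dnmt1*-KO, where it was at 1.68 times. The other ligand, *Il34*, was low in both libraries, with 2.04 and 3.2 FPKM.

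The pathway list, *Il34* included, comprised cytokine and innate receptors, transcription factors of the lineage, and kinases and adaptors. Of 20 written, 19 were listed and 18 were above 0 in both libraries. Of these 18, 10 had a ratio of 2 or more (55.6%, against 11.8% of all genes) and none 0.5 or less. The median log2 ratio of the 18 was 1.15. The count was 6 with a pseudocount of 1, where 4.87% of all genes reached 2, and 5 of 12 at 1 FPKM or more in both libraries, where 5.53% of all genes did. *Spi1*, encoding PU.1, the transcription factor that drives *Csf1r* and much of the macrophage programme, was at 2.5 and 10.36 FPKM, a ratio of 4.14. *Irf8*, another regulator of the lineage, went from 3.76 to 7.76 FPKM. The highest ratio was that of *Cebpa*, 10.8, with 1.34 and 14.41 FPKM. C/EBPα also acts in adipocytes, and 8 of the 9 adipocyte genes above 0 in both libraries were higher in *Dnmt1*-KO, with *Slc2a4* lower at 89.67 and 62.37 FPKM. Their part in the ratio of *Cebpa* was not tested. Next came *Csf2rb*, the shared beta chain of the GM-CSF receptor, with 0.38 and 2.39 FPKM. The lowest ratios were those of adaptors used in every cell type, *Grb2* with 38.19 and 34.73 FPKM and *Cbl* with 6.04 and 6.53 FPKM. *Fgr* was listed at 0 in *Dnmt1*-WT and at 0.23 FPKM in *Dnmt1*-KO.

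**Figure D2:**
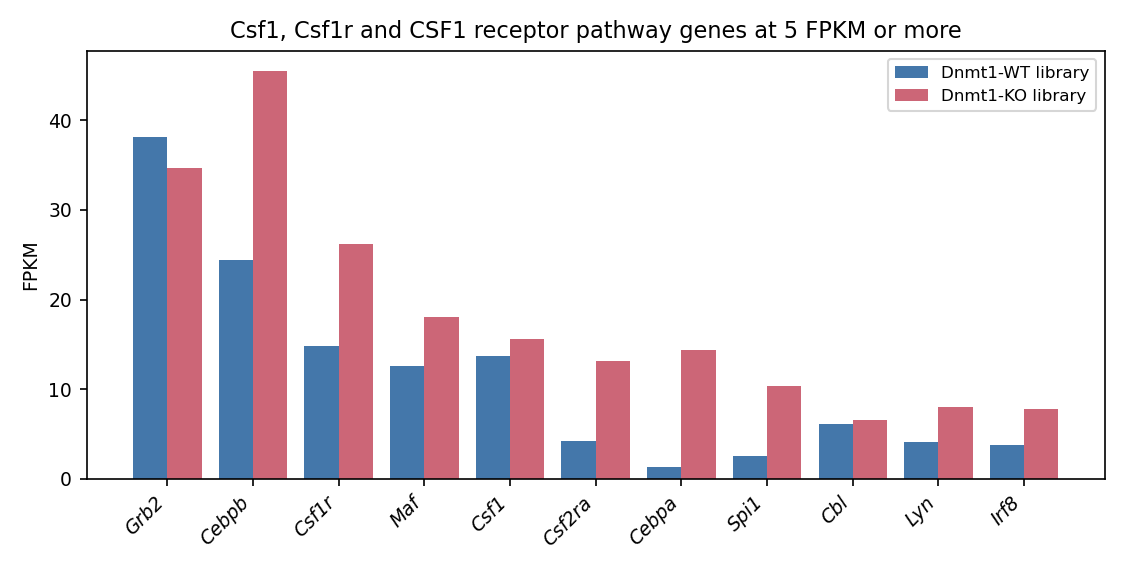
FPKM of *Csf1*, *Csf1r* and those CSF1 receptor pathway genes that reached 5 FPKM in either library (blue, *Dnmt1*-WT, and red, *Dnmt1*-KO, 1 library per genotype), ordered by summed level. *Csf1r*, *Spi1* and *Cebpa*, the last of which also acts in adipocytes, have a taller red bar, while the bars of *Csf1* and *Grb2* are nearly equal.

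Both pan-macrophage markers were higher in *Dnmt1*-KO, but not to the same degree. *Cd68*, on chromosome 11 from 69664213 to 69666153, was at 5.75 FPKM in *Dnmt1*-WT and 20.02 FPKM in *Dnmt1*-KO, a ratio of 3.48 that 5.11% of all genes exceeded. *Emr1*, on chromosome 17 from 57358691 to 57483527, was at 3.79 and 7.75 FPKM, a ratio of 2.04, only just past 2. The level of *Cd68* was 1.52 times that of *Emr1* in *Dnmt1*-WT and 2.58 times in *Dnmt1*-KO. Relatives of F4/80 in the same adhesion receptor family were also read. *Cd97*, found on many leukocytes and on muscle cells, was at 19.72 and 19.97 FPKM, and *Emr4* was listed at 0 and at 0.28 FPKM.

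CD68 is a lysosomal membrane protein, and lysosome genes in general were compared with it. All 20 were above 0 in both libraries, 18 were higher in *Dnmt1*-KO, and 2 had a ratio of 2 or more, a share close to the 11.8% of all genes. Their median log2 ratio was 0.32, against 1.80 for *Cd68*. *Psap*, the most abundant, was at 415.15 and 476.4 FPKM. Among those at 1 FPKM or more, *Laptm5*, a lysosomal protein of haematopoietic cells, had the highest ratio, 2.43, followed by the cathepsin gene *Ctsz* with 1.83. *Tfeb*, the transcription factor that controls lysosome genes, had the lowest ratio, 0.508, with 20.62 and 10.47 FPKM.

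The scavenger receptors of resident macrophages were both higher. *Mrc1*, on chromosome 2 from 14229392 to 14332057, was at 7.91 FPKM in *Dnmt1*-WT and 17.14 FPKM in *Dnmt1*-KO, a ratio of 2.17. *Cd163*, on chromosome 6 from 124304656 to 124330527, was at 4.5 and 12.56 FPKM, a ratio of 2.79. Higher ratios were found for 10.3% and 7.04% of all genes. The mannose receptor relative *Mrc2*, which fibroblasts use to take up collagen, was at 14.43 and 15.59 FPKM, a ratio of 1.08.

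Of 18 other scavenger and lectin receptor genes, 15 were above 0 in both libraries. Of these, 8 had a ratio of 2 or more and 1 a ratio of 0.5 or less, against 11.8% and 4.98% of all genes. At 1 FPKM or more in both libraries the counts were 5 and 0 of 10, against 5.53% and 2.82% of all genes. Among genes at 1 FPKM or more in either library, *Scara5*, a ferritin receptor of stromal cells, had the highest ratio, with 0.76 and 9.98 FPKM. *Clec7a*, the beta-glucan receptor of myeloid cells, came next with 0.21 and 2.34 FPKM. *Stab2*, a hyaluronan receptor of sinusoidal and lymphatic endothelium, had the lowest ratio, 0.181, with 2.37 and 0.43 FPKM. *Lrp1*, the most abundant, was at 48.48 and 60.34 FPKM. Another 3 genes (*Marco*, *Cd5l* and *Cd209a*) were listed at 0 in *Dnmt1*-WT and at 0.22 to 0.63 FPKM in *Dnmt1*-KO.

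CD163 takes up haemoglobin bound to haptoglobin. Of 10 genes of haem and iron handling above 0 in both libraries, 5 had a ratio of 2 or more and none 0.5 or less. *Hp*, haptoglobin itself, had the highest ratio, 85.9, with 0.43 and 36.92 FPKM. *Hmox1*, haem oxygenase 1, was at 1.6 and 8.99 FPKM, a ratio of 5.62. *Fth1*, ferritin heavy chain and the most abundant, was at 1047.3 and 1207.83 FPKM, and *Tfrc*, the transferrin receptor, had the lowest ratio, 0.86. Haptoglobin is also made by adipocytes. All 5 erythroid genes above 0 in both libraries had a ratio of 2 or more, while *Hbb-b1*, which has near-identical copies, was at 46.41 and 0 FPKM. Their part in the ratios of *Cd163*, *Hp* or *Hmox1* was not tested.

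*Cd14*, on chromosome 18 from 36725067 to 36726798, was the least abundant of the 8 genes, with 1.2 FPKM in *Dnmt1*-WT and 4.86 FPKM in *Dnmt1*-KO. Its ratio of 4.05 was exceeded by 4.14% of all genes. At its level such ratios were more frequent, since 13.6% of the 3566 genes within 2-fold of its geometric mean reached a ratio of 2 or more, compared with 3.48% of the 2011 genes near *Lyz2*. Ratios among genes of LPS sensing were mixed. Of 16, 13 were higher in *Dnmt1*-KO, 5 had a ratio of 2 or more, and the median log2 ratio was 0.21. The 5 genes were 31.2% of the list, against 11.8% of all genes. Their count was 3 with a pseudocount of 1, where 4.87% of all genes reached 2. It was 1 of 10 at 1 FPKM or more in both libraries, where 5.53% of all genes did.

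*Tlr4*, the signalling receptor that takes LPS from CD14, was at 2.09 and 2.91 FPKM, and its partner *Ly96* at 8.93 and 9.43 FPKM. *Lbp*, a secreted LPS-binding protein of the liver and other epithelia and of fat, had the highest ratio, 14.5, with 0.76 and 11.02 FPKM. *Irak3*, a brake on TLR signalling in monocytes and macrophages, followed with 0.8 and 3.11 FPKM. Adaptors and kinases shared by many cell types differed little, with *Irak1* at 18.81 and 21.59 FPKM and *Traf6*, the lowest ratio at 1 FPKM or more, at 5.47 and 4.46 FPKM.

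*Lyz2* was the most abundant of the 8 genes in both libraries. It lies on chromosome 10 from 117277331 to 117282321 and reached 27.84 FPKM in *Dnmt1*-WT against 112.85 FPKM in *Dnmt1*-KO, a ratio of 4.05. In order of level among all listed genes it stood at position 2649 in *Dnmt1*-WT and 605 in *Dnmt1*-KO. Of the 2011 genes within 2-fold of its geometric mean, 14, or 0.696%, had a higher ratio. Its level was 1.88 times that of *Csf1r* in *Dnmt1*-WT and 4.31 times in *Dnmt1*-KO.

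A near-identical copy of this gene, *Lyz1*, lies on the same strand from 117287797 to 117292868, with 5475 bases between them, and is the lysozyme of Paneth cells, which lie in the mucosa. The coding sequences, 447 bases each in GENCODE, were identical at 425 positions, or 95.1%, and the longest run shared by the transcripts was 118 bases. Of all 50-base windows of the *Lyz2* transcript, 15.4% occur unchanged in *Lyz1*, so fragments from these stretches could be assigned to either gene. The first 150 coding bases are shown because they carry 14 of the differences, in capitals, by which the transcripts can be told apart.
Lyz2: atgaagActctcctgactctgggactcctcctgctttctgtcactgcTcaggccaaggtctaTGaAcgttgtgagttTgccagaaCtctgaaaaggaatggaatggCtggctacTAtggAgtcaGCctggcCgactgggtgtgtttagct
Lyz1: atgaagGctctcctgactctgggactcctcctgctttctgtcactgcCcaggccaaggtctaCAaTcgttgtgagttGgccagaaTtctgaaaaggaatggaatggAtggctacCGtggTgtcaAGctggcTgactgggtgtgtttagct

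*Lyz1* itself was at 1.17 FPKM in *Dnmt1*-WT against 13.61 FPKM in *Dnmt1*-KO, a ratio of 11.6. The difference between libraries was 85.01 FPKM for *Lyz2* and 12.44 FPKM for *Lyz1*. How fragments shared by both genes were divided was not tested. *Lyz2* exceeded *Lyz1* by 23.8 times in *Dnmt1*-WT and by 8.29 times in *Dnmt1*-KO.

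**Figure D3:**
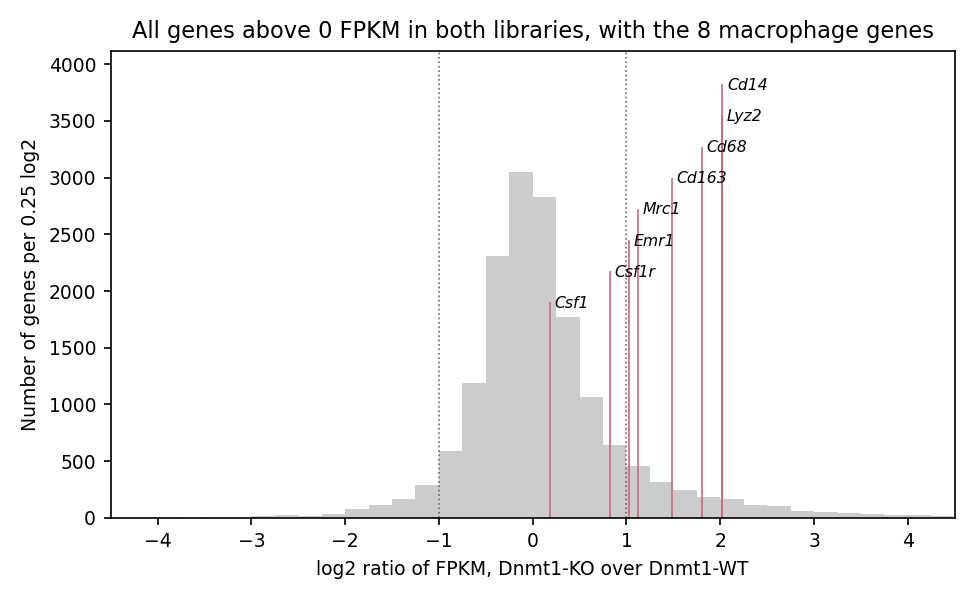
Number of genes per bin of 0.25 in the log2 ratio of *Dnmt1*-KO to *Dnmt1*-WT FPKM, for 16102 genes with an FPKM above 0 in each library (grey), with the 8 macrophage genes as red lines and ratios of 0.5 and 2 dotted. *Csf1* lies within the main peak, *Csf1r* at 0.82 just short of the upper dotted line, and the other 6 genes beyond it.

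Without *Csf1*, of which macrophages are not the main source, the remaining 7 genes summed to 65.78 FPKM in *Dnmt1*-WT and 201.34 FPKM in *Dnmt1*-KO, a ratio of 3.06. Without *Lyz2* the sums were 37.94 and 88.49 FPKM, a ratio of 2.33. Single ratios ran from 1.77 for *Csf1r* to 4.05 for *Lyz2* and *Cd14*, a 2.29-fold range. The make-up of the sum differed accordingly. *Lyz2* held 42.3% of it in *Dnmt1*-WT and 56.0% in *Dnmt1*-KO, while the share of *Csf1r*, 22.5% in *Dnmt1*-WT, was smaller in *Dnmt1*-KO, as were those of *Mrc1*, with 12.0% and 8.51%, and *Emr1*, with 5.76% and 3.85%. The share of *Cd68* was 8.74% and 9.94%, that of *Cd163* 6.84% and 6.24%, and that of *Cd14* 1.82% and 2.41%. The number of transcript variants found was the same in both libraries for each of the 8 genes, 1 for *Cd68*, *Emr1* and *Cd14*, 2 for *Mrc1* and *Lyz2*, and 3 for *Csf1r*, *Csf1* and *Cd163*.

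**Figure D4:**
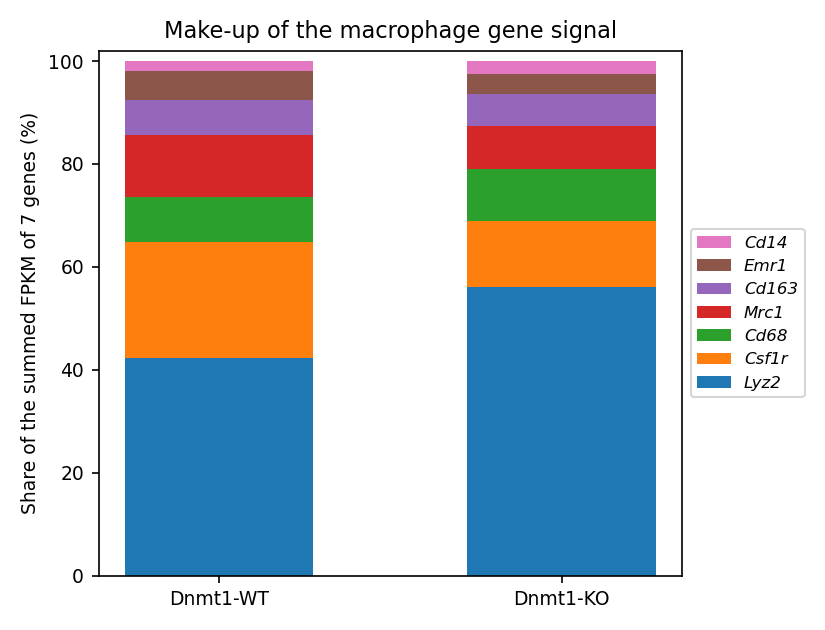
Share of each gene, in percent, in the summed FPKM of the 7 macrophage genes without *Csf1*, for the *Dnmt1*-WT and the *Dnmt1*-KO library. The *Lyz2* segment is larger in *Dnmt1*-KO (56.0% against 42.3%) and the *Csf1r* segment smaller.

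For each gene, the 1 gene nearest to it in level was sought among the 13865 genes at 1 FPKM or more in either library, by Euclidean distance of log2(FPKM + 0.1) over the 2 libraries. With 2 libraries this describes no more than similar levels. *Emr1* had *Irf8* as its neighbour (3.76 and 7.76 FPKM, distance 0.011), and *Lyz2* had the complement gene *C1qa* (31.57 and 125.26 FPKM, distance 0.235). *Lyz2* was also the most isolated, with 1 gene within 0.25 of it, against 399 for *Csf1*. The neighbour of *Cd14* was *Jak3*, a kinase of lymphoid and myeloid cytokine receptors (1.19 and 4.98 FPKM, distance 0.036). *Csf1r* was nearest to *Tmem179b*, *Mrc1* to *Nedd9*, *Cd68* to *Cdca3*, *Cd163* to *Bcl2l12* and *Csf1* to *1600020E01Rik*, at distances from 0.003 to 0.088.

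Promoters were examined as a description of sequence, and shared regulation of these genes was not tested. The RefSeq promoter table (GRCm38.p6) holds 5 of the 8 genes, each with 250 bases before and 50 after the start. Among 5 motifs searched on both strands, the core bound by PU.1 and other ETS factors, GAGGAA, was found in 2 of the 5, *Cd68* and *Mrc1*, and in 28.3% of the 32851 promoters of the table. The C/EBP-like motif TTNCNNAA was found in 4 of the 5, all but *Csf1*, and in 40.7% of all. TGCTGA, the core of a MAF recognition element, was found in *Lyz2* (19.5% of all), and the AP-1 motif TGANTCA in *Cd68* (7.81% of all). No TATAAA was found in these 5 windows (13.6% of all). Matches are a description of letters, and none was tested as a binding site.

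The bases before the first annotated start are shown for the 4 genes with a match and for *Csf1*, whose window held none, with all motif matches in capitals. The *Lyz2* stretch ends at the GENCODE start, within its C/EBP-like match, so this match is incomplete there and left in lower case. The stretches are chr11:69666171-69666410 (minus strand), chr2:14229164-14229391 (plus), chr6:124304411-124304650 (plus), chr10:117282322-117282522 (minus) and chr3:107760470-107760709 (minus), each printed 5′ to 3′ on the strand of its gene.
Cd68: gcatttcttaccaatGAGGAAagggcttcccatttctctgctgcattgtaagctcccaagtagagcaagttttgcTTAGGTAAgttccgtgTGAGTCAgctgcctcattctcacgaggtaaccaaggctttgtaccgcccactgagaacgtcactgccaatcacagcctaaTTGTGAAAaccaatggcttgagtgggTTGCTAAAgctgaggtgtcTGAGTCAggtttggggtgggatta
Mrc1: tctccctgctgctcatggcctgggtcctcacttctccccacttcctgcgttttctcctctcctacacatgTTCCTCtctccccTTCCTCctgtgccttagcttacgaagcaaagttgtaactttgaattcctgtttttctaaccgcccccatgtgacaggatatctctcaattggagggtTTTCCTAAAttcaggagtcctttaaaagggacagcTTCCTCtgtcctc
Cd163: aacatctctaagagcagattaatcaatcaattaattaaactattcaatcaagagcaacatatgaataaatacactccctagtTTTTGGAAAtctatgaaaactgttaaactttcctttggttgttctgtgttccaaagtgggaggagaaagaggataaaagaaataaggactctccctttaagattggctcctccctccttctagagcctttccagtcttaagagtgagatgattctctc
Lyz2: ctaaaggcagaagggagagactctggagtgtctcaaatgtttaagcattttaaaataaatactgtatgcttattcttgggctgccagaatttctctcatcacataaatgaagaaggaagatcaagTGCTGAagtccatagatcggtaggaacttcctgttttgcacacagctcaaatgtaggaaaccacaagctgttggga
Csf1: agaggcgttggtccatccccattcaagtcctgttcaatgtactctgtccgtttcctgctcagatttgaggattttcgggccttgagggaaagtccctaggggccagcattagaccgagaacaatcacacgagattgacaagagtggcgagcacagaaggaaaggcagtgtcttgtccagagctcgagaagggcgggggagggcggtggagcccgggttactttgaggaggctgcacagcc

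Other genes known from macrophages were compared in the same way. This list, too, was chosen with earlier results of these data known, so it is no independent check on the 8 genes. All 15 were higher in *Dnmt1*-KO, and 12 had a ratio of 2 or more, or 80.0% against 11.8% of all genes. Their median log2 ratio, over all 15, was 1.76. The highest ratio was that of *Mpeg1*, a pore-forming protein of phagocytes, with 1.34 and 10.05 FPKM. The lowest was that of *Mertk*, a receptor for dying cells, with 4.8 and 6.71 FPKM, a ratio of 1.4. *C1qa*, a chain of complement C1q and the most abundant by mean level, was at 31.57 and 125.26 FPKM.

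Genes of long-lived resident macrophages were mostly higher as well. Of 15 written, 13 were listed, 12 of these were higher in *Dnmt1*-KO, and 9 had a ratio of 2 or more. The 9 were 69.2% of the listed genes, against 11.8% of all genes. *Timd4*, a receptor for phosphatidylserine on dying cells, had the highest ratio, 20.6, although it was at 0.11 FPKM in *Dnmt1*-WT and 2.27 FPKM in *Dnmt1*-KO. *Retnla*, an alternative activation gene that adipose tissue also expresses, was at 2.2 and 38.8 FPKM. *Gas6*, a bridging ligand of MERTK made by many cell types, was the most abundant, with 171.1 and 221.37 FPKM. *Bmp2*, the signal from muscularis macrophages to enteric neurons, which other cells make too, was the only one lower in *Dnmt1*-KO, with 3.87 and 2.73 FPKM.

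Genes of monocytes and recently recruited macrophages were also compared. Of 14 written, 13 were listed, 12 were higher in *Dnmt1*-KO, and 8 had a ratio of 2 or more (61.5%, against 11.8% of all genes). The median log2 ratio of the list was 1.25. With a pseudocount of 1 the count at 2 or more was 4 (8 for the resident list), where 4.87% of all genes reached 2. At 1 FPKM or more in both libraries it was 3 of 6 (7 of 10 for the resident list), where 5.53% of all genes did. *Ccr2*, the chemokine receptor by which monocytes enter tissue, had the highest ratio, 20.1, and *Ly6c2*, a surface protein of classical monocytes, had 19.4. Both were low, with 0.07 and 1.41 FPKM for *Ccr2* and 0.14 and 2.71 FPKM for *Ly6c2*. *Fn1*, fibronectin, which stromal cells also make, was the most abundant and had the lowest ratio at 1 FPKM or more, with 183.62 and 247.88 FPKM.

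**Figure D5:**
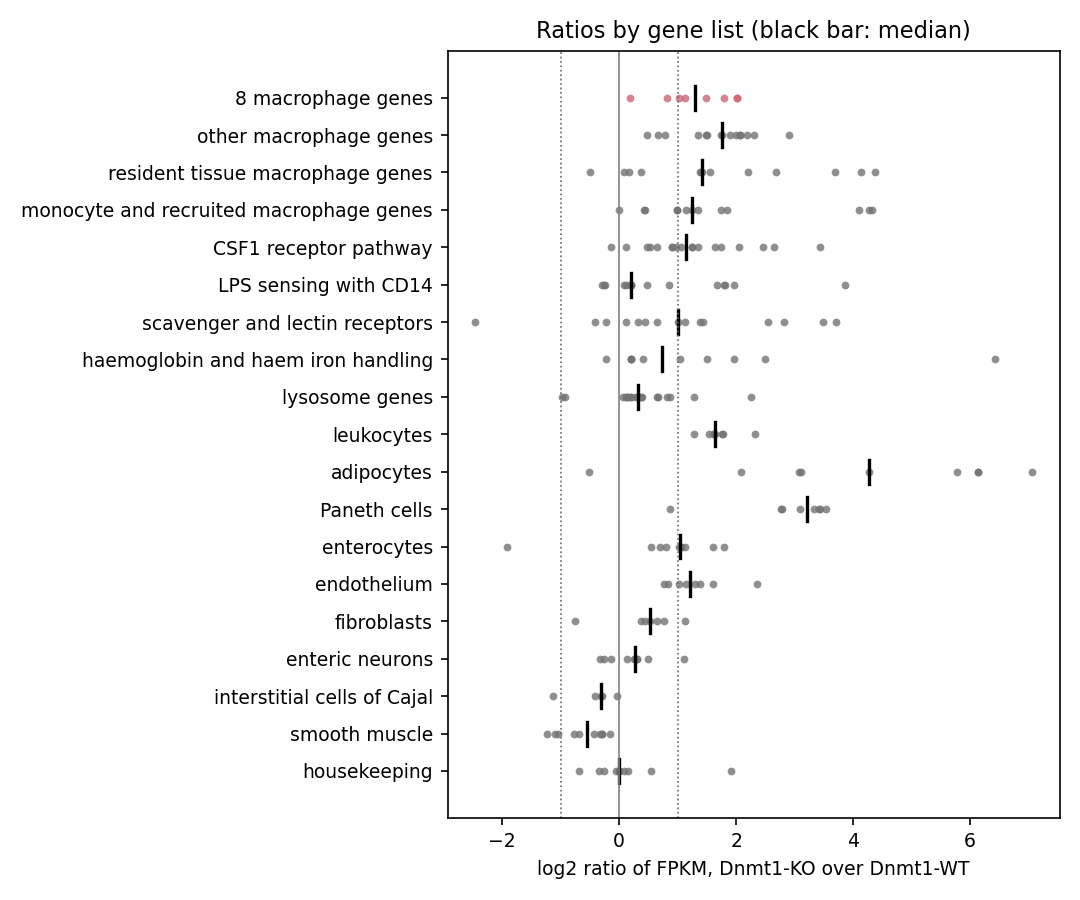
Log2 ratio of *Dnmt1*-KO to *Dnmt1*-WT FPKM of each gene above 0 in both libraries (points), by gene list, with the median as a black bar and ratios of 0.5 and 2 dotted. The 8 macrophage genes (red) have a median of 1.30, lysosome genes 0.32 and smooth muscle genes -0.55, while adipocyte and Paneth cell genes reach 4.27 and 3.21.

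Markers of other cell types also differed between the libraries, and their part in the levels of the 8 genes was not tested. The tissue label was met by the smooth muscle genes, whose sum was 16878.54 FPKM in *Dnmt1*-WT against 12196.79 in *Dnmt1*-KO. All 10 were lower in *Dnmt1*-KO, 3 of them at 0.5 times or less (4.98% of all genes), among them *Myh11* with 2685.29 and 1255.51 FPKM. The targeted gene *Dnmt1* was at 11.58 and 7.58 FPKM. All 8 leukocyte genes had a ratio of 2 or more, against 11.8% of all genes. They had sums of 29.36 and 95.37 FPKM and a median log2 ratio of 1.64, and *Ptprc* (CD45) was at 0.8 and 2.71 FPKM. Of the 8 listed T cell genes, 5 were at 0 in *Dnmt1*-WT (*Cd3d*, *Cd3e*, *Cd8a*, *Cd2* and *Cd5*) and none in *Dnmt1*-KO, where the list summed to 5.79 FPKM. Dendritic cell genes summed to 3.04 and 9.67 FPKM, with 4 of the 6 above 0 in both libraries at a ratio of 2 or more, but 2 with a pseudocount of 1 and 0 of the 1 gene at 1 FPKM or more in both. The sums were 8.03 and 12.69 FPKM for neutrophil, 0.16 and 4.99 for mast cell, and 1.07 and 3.21 for B cell genes. *Pax5* and *Mpo*, which define B cells and the neutrophil lineage, were at 0 in both libraries.

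Markers of fat, mucosa and vessels had higher sums in *Dnmt1*-KO. Adipocyte genes, 8 of 9 with a ratio of 2 or more (11.8% of all genes), summed to 205.92 FPKM in *Dnmt1*-WT against 1319.0 in *Dnmt1*-KO. *Fabp4* alone made up 103.72 and 874.84 FPKM of these sums, and *Lep* was at 0 in *Dnmt1*-WT. Paneth cell genes, *Lyz1* included, summed to 21.87 and 205.64 FPKM, with *Mmp7* at 0 in *Dnmt1*-WT. Enterocyte genes summed to 492.97 and 1075.48 FPKM, with 6 of 10 at a ratio of 2 or more (3 with equal FPKM sums) and 1, the brush-border enzyme gene *Sis*, lower, at 1.93 and 0.51 FPKM. Endothelial genes summed to 61.74 and 143.76 FPKM, with 6 of 8. Lymphatic endothelial genes, among which *Lyve1* is shared with resident macrophages, summed to 29.09 and 68.11 FPKM, of which *Pdpn* made up 24.05 and 37.41 FPKM. Enteric neuron genes (1 of 10 at 2 or more), enteric glia genes (2 of 6), fibroblast genes (1 of 7) and interstitial cell of Cajal genes (0 of 5) had median log2 ratios of 0.26, 0.21, 0.52 and -0.31. Among the glia genes, *Gfap* had the highest ratio, 7.4, with 4.78 and 35.36 FPKM. Macrophages also reside in fat and mucosa, and from which tissue layer the RNA of these genes came cannot be told apart in these libraries.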

How the data were processed

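RNA of jejunal tunica muscularis (TruSeq RNA libraries) was represented by 1 library for each genotype. Per the labels, the authors' notes name TopHat 1.4.1, Cufflinks 2.0.2 and mm10, with roles, annotation and filters not given in the sources used here. The deposited values are FPKM per gene, rounded to 2 decimals, the lowest above 0 being 0.03 in both libraries. Another deposited column pair gives the number of transcript variants. The table gives no read counts, and the library totals that the study states were not used here, so no counting interval was computed. The authors' ratio of both genotypes was also deposited and was not used. FPKM summed to 429698 in *Dnmt1*-WT and 460845 in *Dnmt1*-KO. Both samples carry a free-text description naming the knockout, and groups follow the genotype label.

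Ratios are plain *Dnmt1*-KO over *Dnmt1*-WT FPKM. With 1 library per genotype no test was made. Members and gene lists were chosen with earlier results of these data known. Named genes were the 8 members, the most abundant and the highest and lowest ratios (at 1 FPKM or more in either library) of each macrophage, pathway, receptor and lysosome list, *Dnmt1*, *Myh11*, *Ptprc*, *Lyz1*, nearest neighbours and, chosen after their values were seen, *Il34*, *Spi1*, *Tlr4*, *Ly96*, *Mrc2*, *Sis*, *Slc2a4*, *Fabp4*, *Gfap*, *Lyve1*, *Pdpn*, *Hbb-b1*, the genes of short lists and those listed at 0. Lists of which fewer than 3 genes reached 1 FPKM are given as values only. Protein sequences were not used here, and 1 gene of the pathway list is not reported here by name. Counting and scaling were tested on simulated data. Python 3.11.15, numpy 2.4.6, pandas 2.3.3 and matplotlib 3.10.9 were used.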

Additional observations from a re-analysis of the deposited data

How the results depend on the processing

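With 1 library per genotype, no error can be attached to a ratio, and the fragments behind low genes such as *Cd14*, *Ccr2* or *Timd4* were not counted here. The ratio of each of the 8 genes was above 1 under all 8 alternatives of scaling, pseudocount and filter. Not all of these could move it. All 8 genes were at 1 FPKM or more in both libraries, so the filters alone left their ratios unchanged. Setting the median, trimmed mean or upper quartile equal shifted log2 ratios by only 0.03. The number at 2 or more was 6 under 6 of the 8 alternatives. It was 5 with equal FPKM sums or a pseudocount of 1, where *Emr1* came to a log2 ratio of 0.93 and 0.87. It was 7 at a fold of 1.5 and 3 at a fold of 3. Their median log2 ratio was 1.33 with the median, trimmed mean or upper quartile set equal, 1.2 with equal sums, 1.28 with a pseudocount of 0.1 (with or without the filter at 1 FPKM in either library) and 1.16 with a pseudocount of 1. *Cd14* was affected most, with log2 ratios from 1.41 to 2.05. Over all genes, the numbers at 2 or more and at 0.5 or less were 784 and 278 with a pseudocount of 1, 705 and 360 at 1 FPKM or more in both libraries, 3175 and 2038 at a fold of 1.5, and 1040 and 284 at a fold of 3, against 1893 and 802. With 1 FPKM in either library and a pseudocount of 0.1, 492 genes were at 0.5 or less. Among the gene lists, the number at 2 or more moved by over 1.5 times for CSF1 receptor pathway (10, and 6 with a pseudocount of 1, 5 at 1 FPKM in both, 6 at a fold of 3), LPS sensing (5, and 3, 1 at 1 FPKM in both, and 3 at 1 FPKM in either), monocyte (8, and 4, 3, and 5 at a fold of 3), lysosome (2, and 1 under each of these settings, 6 at a fold of 1.5), scavenger (8, and 5 at 1 FPKM in both, 4 at a fold of 3), resident macrophage (9, and 5 at a fold of 3), haem (5, and 3 at a fold of 3), enterocyte (6, and 3 with equal sums, 2 at a fold of 3), endothelial (6, and 2 at a fold of 3), enteric glia (2, and 1 with a pseudocount of 1 or a fold of 3), dendritic cell (4, and 2 with a pseudocount of 1, 0 at 1 FPKM in both), fibroblast (1, and 3 at a fold of 1.5, 0 at a fold of 3) and enteric neuron genes (1, and 0 at a fold of 3). At 1 FPKM in both libraries it was 4 against 8 for adipocyte, 3 against 5 for erythroid and 2 against 4 for lymphatic endothelial genes. The number of smooth muscle genes at the lower cut, 3 at 0.5 or less, was 5 at a fold of 1.5 and 0 at a fold of 3. For lysosome genes the number at the lower cut was 0, and 2 with equal FPKM sums or at a fold of 1.5. No paired analysis was possible because each genotype has 1 library.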
